A study of Mus musculus with 6 samples.

Results

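The chemokine ligands of the CXC family and the single CX3C ligand were examined in CD11B+ cells isolated from injured mouse kidneys. The 10 ligands were taken by gene symbol from the table of gene counts, namely Cxcl1, Cxcl2, Cxcl3, Cxcl5, Cxcl9, Cxcl10, Cxcl12, Cxcl14, Cxcl16 and Cx3cl1, and all 10 were found among the 46603 genes of the table. In CD11B+ cells from PTEC DN RAR mice, Cxcl1, Cxcl2 and Cxcl3, which attract neutrophils, were 2.77-fold to 4.89-fold lower than in cells from Cre- controls, whereas Cxcl9, Cxcl12 and Cx3cl1 were 1.84-fold to 2.91-fold higher. Cxcl10, which like Cxcl9 is an interferon-induced ligand of Cxcr3, did not pass the test (log2 fold change -0.77, edgeR adjusted p = 0.0586). Cxcl9 exceeded Cxcl10 in each PTEC DN RAR library and was below it in each Cre- control library, a difference for which 3 against 3 libraries allow no exact p under 0.1.

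The experiment compared CD11B+ cells of 2 genotypes, with 3 mice and 1 library per mouse in each. PTEC DN RAR mice carried PEPCK CRE+ with Rosa26-LSL-RARaT403X, an allele from which Cre recombinase releases a truncated, dominant negative retinoic acid receptor alpha (RARα) that blocks signaling by all 3 RARs. The controls carried the same Rosa26-LSL-RARaT403X allele without Cre (PEPCK CRE-). All mice were males 10 to 12 weeks of age and were studied on day 3 after ischemia reperfusion-induced acute kidney injury (IRI-AKI), made by closing the vessels of both kidneys for 28 minutes. PEPCK-Cre is active in proximal tubular epithelial cells (PTECs), so that the allele is directed to the tubule and not to the CD11B+ leukocytes that were sequenced. The Cre line was on a mixed 129svJ; C57BL/6 background and the R26R-DN RAR line on C57BL/6. CD11B+ cells were drawn from dissociated whole kidneys with magnetic beads, and polyA RNA was sequenced.

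Chemokines are small secreted proteins that steer leukocytes along concentration gradients by way of G protein-coupled receptors. The CXC ligands that act on Cxcr2 (Cxcl1, Cxcl2, Cxcl3 and Cxcl5) recruit neutrophils and are rapidly induced through NF-kB, whereas the ligands of Cxcr3 (Cxcl9 and Cxcl10) recruit activated T and NK cells and are induced by interferons. Cxcl12 and Cxcl14 are expressed by stromal, endothelial and epithelial cells in many tissues, and Cxcl16 and Cx3cl1 (fractalkine) are anchored in the membrane and released by proteases. In the injured kidney, neutrophils and monocytes enter within hours to days, and macrophages, tubular cells and endothelium all make chemokines.

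The ligands cluster in the genome (GRCm38, GENCODE M21). Cxcl5 (chr5:90759360-90761624), Cxcl3 (chr5:90786103-90789600), Cxcl1 (chr5:90891241-90893115) and Cxcl2 (chr5:90903871-90905938) lie on the plus strand of chromosome 5, and Cxcl9 (chr5:92321347-92328079) and Cxcl10 (chr5:92346638-92348889) lie on its minus strand. Cxcl12 (chr6:117168535-117181367) and Cx3cl1 (chr8:94772009-94782427) are on the plus strand, and Cxcl16 (chr11:70453983-70459984) and Cxcl14 (chr13:56288643-56296551) are on the minus strand.

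The 3 neutrophil-attracting ligands that changed share a sequence just before their start sites, and the promoters of Cxcl9 and Cxcl10 differ, so these 5 promoters are shown (RefSeq, GRCm38.p6). Of the 10 ligands, 8 matched a promoter window of 250 bases before the start, without Cxcl5 and Cxcl16. The last 150 bases before the start of Cxcl1 (chr5:90891095-90891244, plus strand), Cxcl2 (chr5:90903749-90903898, plus strand) and Cxcl3 (chr5:90785951-90786100, plus strand) are given 5′ to 3′, with matches to the NF-kB consensus on either strand in capitals.
Cxcl1: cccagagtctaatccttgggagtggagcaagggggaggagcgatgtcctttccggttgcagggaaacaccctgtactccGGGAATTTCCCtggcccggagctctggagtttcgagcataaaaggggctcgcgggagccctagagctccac
Cxcl2: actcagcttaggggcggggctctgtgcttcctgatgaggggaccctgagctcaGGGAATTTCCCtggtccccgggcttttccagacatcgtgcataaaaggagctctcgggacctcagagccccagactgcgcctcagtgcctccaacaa
Cxcl3: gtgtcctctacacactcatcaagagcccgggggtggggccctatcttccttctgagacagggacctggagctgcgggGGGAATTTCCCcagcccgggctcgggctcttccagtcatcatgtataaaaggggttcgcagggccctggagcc
Each of the 3 holds the same 11-base stretch, GGGAATTTCCC, which matches the consensus on both strands. It spans bases 71 to 61 before the start of Cxcl1, 97 to 87 before Cxcl2 and 73 to 63 before Cxcl3.

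For the pair of Cxcr3 ligands the whole 250 bases before the start are given, as read on the minus strand, for Cxcl9 (chr5:92328080-92328329) and Cxcl10 (chr5:92348890-92349139). Capitals mark matches to the NF-kB consensus or, on either strand, to the core of the interferon-stimulated response element, which is TTTC, any 2 bases and TTTC again.
Cxcl9: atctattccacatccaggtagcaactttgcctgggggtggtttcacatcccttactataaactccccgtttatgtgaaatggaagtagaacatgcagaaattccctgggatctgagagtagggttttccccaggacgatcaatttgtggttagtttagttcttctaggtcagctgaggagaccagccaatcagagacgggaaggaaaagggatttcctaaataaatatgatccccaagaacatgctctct
Cxcl10: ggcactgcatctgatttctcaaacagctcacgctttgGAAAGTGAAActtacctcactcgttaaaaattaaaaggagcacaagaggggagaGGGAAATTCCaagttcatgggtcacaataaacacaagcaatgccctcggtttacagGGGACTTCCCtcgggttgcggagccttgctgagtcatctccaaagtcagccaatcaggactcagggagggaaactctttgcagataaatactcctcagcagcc
Cxcl10 held 2 NF-kB matches, GGGAAATTCC at bases 159 to 150 and GGGACTTCCC at bases 103 to 94, and 1 interferon core match, GAAAGTGAAA at bases 213 to 204. Cxcl9, the ligand that rose, held neither in this window, and neither did Cxcl12 or Cx3cl1, whereas Cxcl14 held 1 interferon core match, GAAACAGAAA, at bases 172 to 163. Of 32851 promoter windows of the same length, 3.90% held the NF-kB consensus and 2.98% held the interferon core. These matches describe letters only, and the libraries do not measure binding of any factor.

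Expression is given in counts-per-million after scaling by the trimmed mean of M values (CPM), and differences as the log2 fold change of PTEC DN RAR minus Cre- control with its standard error (SE). Calls are from edgeR's quasi-likelihood test over 15440 genes, with Benjamini-Hochberg adjustment and a threshold of 0.05 on the adjusted p. Libraries held 29318041 to 46517005 counts assigned to genes, so that 3 reads corresponded to 0.0645 to 0.102 CPM. Of the 9 ligands tested, 3 were lower, 3 were higher and 3 did not pass, while over all genes 40.6% passed, with 17.1% lower and 23.6% higher. The median log2 fold change was 0.33 over the 9 ligands and 0.04 over all genes. As these are bulk samples, fewer cells of a type and less RNA per cell cannot be told apart.

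Rara, the gene whose product the allele inhibits, was at 35.3 to 45.4 CPM in the Cre- controls and 30.7 to 37.6 CPM in PTEC DN RAR, which does not check the genotype, since the allele is directed to the tubule. Markers of several cell types moved with genotype, and these values stand beside the ligands' results. CD11B itself (Itgam) was at 1737, 1959 and 1995 CPM in the Cre- controls and at 1366, 1303 and 980.3 CPM in PTEC DN RAR. Of 10 neutrophil markers, 5 were lower, and the list's summed level was 471 to 849 CPM in the controls and 299 to 426 CPM in PTEC DN RAR. The rest of that list, Csf3r, Ltf, Camp, Ngp and Ly6g, did not pass the test and overlapped between the genotypes. Of 8 infiltrating monocyte markers, 6 were lower, with a summed level of 2425 to 2638 CPM against 1185 to 1369 CPM. Ly6c2 (34.2 to 65.2 against 13.5 to 41.5 CPM) and Ly6c1 (6.18 to 23.0 against 19.3 to 22.1 CPM) did not pass and overlapped. Of 8 resident macrophage markers, 2 were higher, Cd74 of the MHC class II pathway (8044 to 10823 against 15533 to 23758 CPM) and Cd81 (262 to 356 against 455 to 698 CPM). The other 6, Adgre1, C1qa, C1qb, C1qc, Apoe and Cx3cr1, did not pass the test and overlapped between the genotypes, so that the separation of the list's sum, 25525 to 30905 against 33230 to 46389 CPM, was mostly that of Cd74. The 10 macrophage genes used as a scaling reference, which include Lyz2 and Cd68, summed to 25754 to 28138 against 22205 to 25032 CPM, with 3 lower and 1 higher. Non-leukocyte transcripts were higher in PTEC DN RAR, with 16 of 16 proximal tubule markers (723 to 972 against 2523 to 3965 CPM), 7 of 10 markers of the loop, distal tubule and collecting duct (1259 to 1832 against 4328 to 8345 CPM), 10 of 10 endothelial markers (106 to 151 against 316 to 388 CPM) and 7 of 8 tested stromal markers (76.1 to 96.3 against 117 to 214 CPM). B cell markers summed to 23.6 to 31.1 against 33.2 to 49.9 CPM, and the sums of dendritic cell and podocyte markers overlapped. No marker of these lists was at 0 in all libraries, and the part of any of these cell types in the ligands' differences was not tested.

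**Figure D1:**
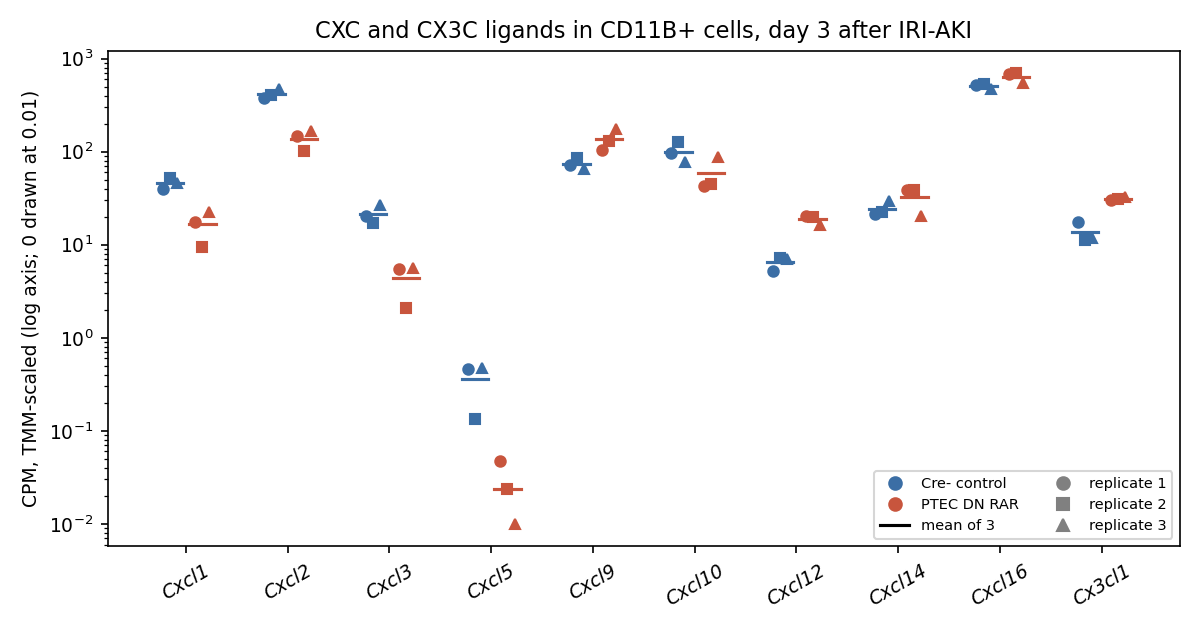
Level of each ligand (CPM, log axis) in 3 Cre- control libraries (blue) and 3 PTEC DN RAR libraries (red); symbols are replicates, lines are means of 3, and 0 is drawn at 0.01. All PTEC DN RAR libraries lie below all controls for Cxcl1, Cxcl2, Cxcl3 and Cxcl5 and above them for Cxcl9, Cxcl12, Cxcl16 and Cx3cl1, while Cxcl10 and Cxcl14 overlap through PTEC DN RAR replicate 3.

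The question of the comparison was how blocking RAR signaling in the tubule altered the RNA of CD11B+ cells after injury, and for the ligands of Cxcr2 the change was a fall. Cxcl2, also known as MIP-2 and made in large amounts by activated macrophages, was at 378, 409 and 467 CPM in the Cre- controls and at 147, 100.5 and 167 CPM in PTEC DN RAR. The highest PTEC DN RAR library was thus below the lowest control. Cxcl2 fell by 1.60 on the log2 scale (SE 0.18, edgeR adjusted p = 0.000455). Cxcl1, or KC, the other main neutrophil attractant of mice, was at 39.9, 51.8 and 45.9 CPM in controls and at 17.6, 9.52 and 22.5 CPM in PTEC DN RAR. Its groups did not overlap either, and it fell by 1.47 (SE 0.27, edgeR adjusted p = 0.00346).

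Cxcl3, a close relative of Cxcl2, showed the steepest fall of the ligands tested. It was at 20.3, 17.3 and 27.1 CPM in controls and at 5.47, 2.10 and 5.62 CPM in PTEC DN RAR, a log2 fold change of -2.29 (SE 0.34, edgeR adjusted p = 0.00148). Replicate 2 was the lowest PTEC DN RAR library for Cxcl1, Cxcl2 and Cxcl3 alike. Cxcl2 and Cxcl3 are partly identical in sequence. Of all 50-base windows in their annotated transcripts, 5.84% of those of Cxcl2 and 4.29% of those of Cxcl3 also occur in another gene, and no window of Cxcl1 does.

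Cxcl5, a Cxcr2 ligand of epithelial cells, platelets and some leukocytes, was nearly absent and did not enter the test over all genes. It had 18, 4 and 15 reads in the controls and 2, 1 and 0 reads in PTEC DN RAR. Pooled over libraries, 37 reads (0.368 CPM) stood against 3 reads (0.0228 CPM), a ratio of 0.0619 with an exact 95% interval of 0.0122 to 0.196 that covers counting error only. With no filter on low counts, edgeR gave it a log2 fold change of -3.82 (adjusted p = 0.00339). Counting Cxcl5, all 4 Cxcr2 ligands were lower in each PTEC DN RAR library than in any control, as were 24.2% of all genes tested.

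Cxcr2, the receptor through which neutrophils follow these ligands and itself one of the neutrophil markers, was at 10.6, 13.5 and 20.9 CPM in controls and at 8.03, 5.87 and 5.51 CPM in PTEC DN RAR (log2 fold change -1.21, SE 0.26, edgeR adjusted p = 0.00708). Cxcr1 was below 1 CPM in both groups (log2 fold change -0.44, edgeR adjusted p = 0.487). Ppbp (Cxcl7), whose processed form NAP-2 acts on Cxcr2, was at 25.6, 19.0 and 36.4 CPM in controls and at 1.77, 0.778 and 1.42 CPM in PTEC DN RAR (log2 fold change -4.35, SE 0.33, edgeR adjusted p = 0.000181). Pf4 (Cxcl4), which is not a Cxcr2 ligand but is stored like Ppbp in platelet granules, was at 383, 258 and 357 CPM against 39.9, 32.3 and 44.0 CPM (log2 fold change -3.10, SE 0.18, edgeR adjusted p = 0.000115). Both belong to the list of 7 platelet markers, of which 4 were tested. The other 2 tested, Itga2b and Tubb1, did not pass the test.

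Genes that induce these ligands, feed back on them or control the decay of their mRNA mostly went the same way. Of 34 such genes of the NF-kB pathway, 19 were lower and 1 was higher, against 17.1% lower and 23.6% higher over all genes, with a median log2 fold change of -0.27. With scaling on pan-leukocyte genes 6 were lower, as were 728 of all 15440 genes. With 1 library left out at a time 11 to 14 were lower, with 12 without Cre- control replicate 2 or 3, 11 without PTEC DN RAR replicate 1 and 12 without PTEC DN RAR replicate 2. Il1b, which encodes interleukin-1β, was at 1186, 1115 and 964 CPM in controls and at 783, 621 and 658 CPM in PTEC DN RAR (log2 fold change -0.66, SE 0.13, edgeR adjusted p = 0.00408). Il1a (log2 fold change -0.89), Tlr4, the receptor for endotoxin (-1.03), Zfp36, which encodes the mRNA-destabilizing protein tristetraprolin (-0.80), Il6 (-1.19) and the NF-kB inhibitor Nfkbia (-0.53) were also lower. Il6 was low throughout, at 1.01 to 2.72 CPM in controls and 0.693 to 1.04 CPM in PTEC DN RAR, and those ranges overlapped. Tnf (-0.37), Nfkbiz (-0.30) and Tnfaip3 (-0.34) passed the test with smaller differences, and Tnip1, an inhibitor of the pathway, was higher (0.26). Of 15 alternative fits, Tnf lost its call in 10, Nfkbiz and Tnip1 in 9 each, Il6 in 6, Tnfaip3 in 5 and Nfkbia in 1, each with its direction kept. The neutrophil and infiltrating monocyte marker sums given above were lower in the same libraries, and their part in this result was not tested.

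The ligands of Cxcr3 differed from each other. Cxcl9, or Mig, which is induced chiefly by interferon-γ, was at 71.3, 86.6 and 65.1 CPM in controls and at 105, 130 and 177 CPM in PTEC DN RAR. All PTEC DN RAR libraries were above all controls, as were 29.2% of all genes tested in that direction. Cxcl9 rose by 0.88 on the log2 scale (SE 0.19, edgeR adjusted p = 0.0067), and it stayed past the threshold in all 15 alternative fits, at 0.61 to 1.12.

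Cxcl10, or IP-10, which responds to type I and type II interferons and to NF-kB, was at 96.4, 126 and 77.2 CPM in controls and at 42.4, 45.1 and 88.1 CPM in PTEC DN RAR. PTEC DN RAR replicate 3 lay within the range of the controls, and the other two lay below it. The log2 fold change was -0.77 (SE 0.28) and did not pass the threshold (edgeR adjusted p = 0.0586). Without PTEC DN RAR replicate 3 it was -1.23 (edgeR adjusted p = 0.00357), and without Cre- control replicate 3 it was -0.97 (edgeR adjusted p = 0.0498). The Cxcl10 gene lies within Art3 on the opposite strand, and 3.6% of its 50-base windows also occur in annotated transcripts of Art3. Reads from that part cannot be separated between the 2 genes if counting ignored strand. Art3 was at only 0.461 to 0.665 CPM in controls and 1.31 to 1.91 CPM in PTEC DN RAR.

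The ratio of Cxcl9 to Cxcl10, taken within each library and so free of scaling, was 0.740, 0.688 and 0.843 in the controls and 2.47, 2.87 and 2.01 in PTEC DN RAR. The control and PTEC DN RAR ratios did not overlap, and the spread within each group was small beside the gap. On the log2 scale the ratio averaged -0.41 ± 0.15 in Cre- controls and 1.28 ± 0.26 in PTEC DN RAR (each SD, n = 3), a difference of 1.68. The exact two-sided permutation test gave p = 0.1, the smallest that 3 against 3 libraries allow (0.2 after adjustment over the 6 ratios computed). Leaving out 1 library at a time, the difference ranged from 1.56 to 1.82. The separation was not particular to this pair. Cxcl16 over Cxcl10 (log2 difference 1.15) and Cx3cl1 over Cxcl16 (0.91) did not overlap either, each with an exact permutation p = 0.1. Cxcl1 over Cxcl10 (-0.73) and Cxcl2 over Cxcl10 (-0.80) overlapped between the genotypes.

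**Figure D2:**
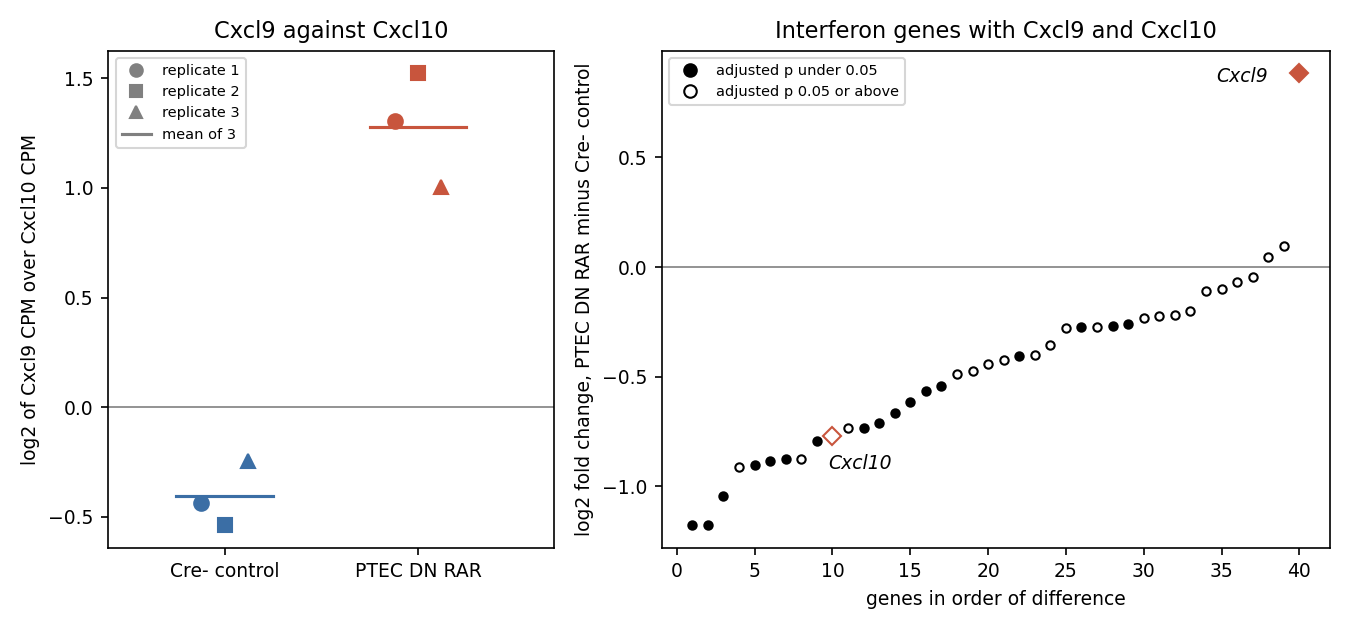
Left, log2 of Cxcl9 CPM over Cxcl10 CPM in each library, with the mean of 3 as a line; all 3 controls are below 0 and all 3 PTEC DN RAR libraries are above 1. Right, log2 fold changes of 38 interferon genes (circles) with Cxcl9 and Cxcl10 (diamonds) in ascending order, filled where the adjusted p is under 0.05; Cxcl9 is the top point at 0.88 and Cxcl10 lies at -0.77.

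Interferon pathway and interferon-stimulated genes were set beside this pair. Of 40 genes on that list 38 were tested, of which 17 were lower (17.1% over all genes), with a median log2 fold change of -0.43. Higher were 0 with edgeR (23.6% over all genes), 0 at an unadjusted p under 0.05, 0 with DESeq2 and 0 with limma-voom. The highest fold change on the list was 0.10, for Irf3, whereas that of Cxcl9 was 0.88. Isg15, a ubiquitin-like antiviral protein, was at 129, 85.4 and 72.8 CPM in controls and at 26.8, 41.7 and 58.8 CPM in PTEC DN RAR (log2 fold change -1.18, SE 0.29, edgeR adjusted p = 0.0127). Oasl2 (-1.18), Ifit1 (-1.05) and Rsad2 (-0.90), all antiviral effectors, were lower too, and Ifit1 and Rsad2 each lost the call in 5 of 15 alternative fits. PTEC DN RAR replicate 3 was the highest of its group for Isg15, Oasl2, Ifit1 and Rsad2, as it was for both Cxcl10 and Cxcl9. Cre- control replicate 3 was the lowest of its group for all of these genes.

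Irf1 and Irf7, transcription factors of the interferon response, did not pass the test. Irf1, which acts in the interferon-γ response, had a log2 fold change of -0.20 (edgeR adjusted p = 0.159), and Irf7, the master factor of the type I response, one of -0.42 (edgeR adjusted p = 0.286). Ifng itself had 1, 1 and 1 reads in controls and 2, 2 and 0 in PTEC DN RAR, too few to compare. NK and T cell markers, whose cells make interferon-γ and follow Cxcl9, summed to 2.88 to 7.25 CPM in controls and 2.73 to 7.77 CPM in PTEC DN RAR, with 1 of 5 tested higher. That was Trac, of the T cell receptor, at 0.205, 0.168 and 0.317 CPM against 1.55, 1.06 and 0.657 CPM (log2 fold change 2.23, edgeR adjusted p = 0.00515), while Gzma, the most abundant of the list in controls, was at 2.36, 4.90 and 1.17 against 2.32, 0.613 and 0.932 CPM. The T cell markers Cd3d, Cd3e and Cd3g were at 0.0769 to 0.253 CPM in controls and 0.0424 to 1.00 CPM in PTEC DN RAR, and only Cd3g of the 3 was tested (log2 fold change 1.33, edgeR adjusted p = 0.25). The part of T cells in the difference of Cxcl9 was not tested. The count of lower interferon genes ranged from 6 to 21 when 1 library was left out, with 10 without Cre- control replicate 1, 6 without Cre- control replicate 2, 9 without PTEC DN RAR replicate 1 and 11 without PTEC DN RAR replicate 2. It was 3 with pan-leukocyte scaling and 10 with a replicate block.

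The receptor Cxcr3 was low in both groups, at 4.82, 5.33 and 3.93 CPM in controls and 7.60, 6.55 and 5.19 CPM in PTEC DN RAR (log2 fold change 0.46, edgeR adjusted p = 0.0924). Cxcl11, the remaining Cxcr3 ligand, whose gene is annotated as a polymorphic pseudogene in this build, was at 0.845, 1.74 and 0.760 CPM against 0.191, 0.471 and 0.721 CPM. Its groups did not overlap, but the difference did not pass (log2 fold change -1.25, edgeR adjusted p = 0.0805). Without PTEC DN RAR replicate 3 it did, at -1.77. Cxcl11 too lies within Art3.

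Cxcl12, or SDF-1, the homeostatic ligand that retains leukocytes in the bone marrow through Cxcr4, was low in all libraries and showed the largest rise of the ligands. It was at 5.23, 7.18 and 7.0 CPM in controls and at 20.3, 19.7 and 16.4 CPM in PTEC DN RAR. The lowest PTEC DN RAR library was well above the highest control, and the log2 fold change was 1.54 (SE 0.16, edgeR adjusted p = 0.000354). The higher endothelial and stromal marker levels given above accompanied this rise. For endothelium, Cdh5 (VE-cadherin) was at 12.2 to 17.2 CPM in controls and 33.0 to 38.7 CPM in PTEC DN RAR, and Pecam1 at 24.0 to 31.0 against 54.6 to 64.3 CPM. Its receptor Cxcr4 went the other way, at 604, 480 and 516 CPM in controls and 429, 391 and 421 CPM in PTEC DN RAR (log2 fold change -0.37, SE 0.11, edgeR adjusted p = 0.0254), and Ackr3, the atypical receptor that removes Cxcl12, had a log2 fold change of 0.66 (edgeR adjusted p = 0.076). Cxcr4 lost its call in 4 of 15 alternative fits, with pan-leukocyte scaling (-0.16) and without Cre- control replicate 1 (-0.27), PTEC DN RAR replicate 1 (-0.40) or PTEC DN RAR replicate 2 (-0.33).

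Cxcl14, a constitutive ligand of epithelia, was at 21.4, 22.6 and 29.2 CPM in controls and at 38.4, 39.0 and 20.5 CPM in PTEC DN RAR. In PTEC DN RAR, replicate 3 was below every control and the other two were above every control. The log2 fold change was 0.42 (SE 0.24, edgeR adjusted p = 0.184), and it was 0.63 without PTEC DN RAR replicate 3 (edgeR adjusted p = 0.0148). The markers of the loop, distal tubule and collecting duct were highest in that same library, at 8345 CPM in sum, and those of the proximal tubule were at 3179 CPM there against 2523 and 3965 CPM in the other two. The stromal marker sum was lowest there, at 117 CPM against 152 and 214 CPM in replicates 1 and 2, and its part in the level of Cxcl14 was not tested.

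Among the membrane-bound ligands, Cx3cl1, which endothelial and tubular cells display and which holds Cx3cr1+ macrophages and monocytes, rose. It was at 17.7, 11.2 and 11.8 CPM in controls and at 30.4, 31.0 and 32.2 CPM in PTEC DN RAR. The PTEC DN RAR libraries lay close together, all above the highest control, which was replicate 1. The log2 fold change was 1.20 (SE 0.17, edgeR adjusted p = 0.00123). Its receptor Cx3cr1, a marker of resident renal macrophages, was at 783, 969 and 817 CPM against 1007, 941 and 875 CPM, and these groups overlapped (log2 fold change 0.14, edgeR adjusted p = 0.368).

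Cxcl16, a scavenger receptor and chemokine that macrophages carry on their surface and whose receptor is Cxcr6, was abundant in every library. It was at 516, 540 and 468 CPM in controls and at 677, 696 and 542 CPM in PTEC DN RAR. PTEC DN RAR replicate 3 was only just above the highest control. The log2 fold change of 0.33 (SE 0.12) missed the threshold (edgeR adjusted p = 0.053), and 6 of 15 alternative fits took it past the threshold, at 0.29 to 0.53. Without PTEC DN RAR replicate 3 it was 0.39 (edgeR adjusted p = 0.0223).

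The Cxcl16 gene overlaps Zmynd15 on the opposite strand by 552 bases, and 16.9% of its 50-base windows also occur in that gene. Zmynd15 was at 27.6, 39.8 and 29.1 CPM in controls and 90.0, 95.9 and 63.7 CPM in PTEC DN RAR, so that the level of Cxcl16 is uncertain to that extent if counting ignored strand. Cxcr6 had 5, 2 and 2 reads in controls and 18, 3 and 1 in PTEC DN RAR, and was not tested.

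**Figure D3:**
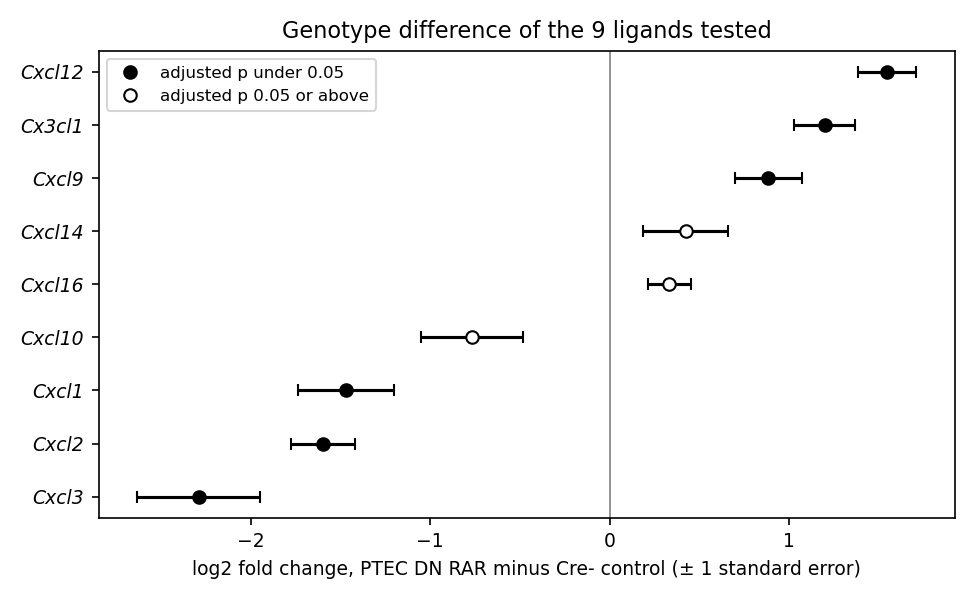
Log2 fold change (PTEC DN RAR minus Cre- control) of the 9 ligands tested, with 1 standard error of the fit to either side; filled points have an adjusted p under 0.05. Cxcl1, Cxcl2 and Cxcl3 lie between -2.29 and -1.47, and Cxcl9, Cx3cl1 and Cxcl12 between 0.88 and 1.54.

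Proteases that release, activate or degrade these ligands were described as a further list. Of 10 such genes tested, 3 were lower and 2 were higher, beside 17.1% and 23.6% over all genes. Mmp9, the gelatinase of neutrophils and monocytes, was at 153, 153 and 255 CPM in controls and at 64.0, 28.5 and 39.3 CPM in PTEC DN RAR (log2 fold change -2.09, SE 0.31, edgeR adjusted p = 0.00142), and Mmp8, the neutrophil collagenase and one of the neutrophil markers, was lower by the same test (-1.53). Mmp2, which can cleave Cxcl12, was higher (1.77), as was Dpp4, which truncates several ligands including Cxcl10 and Cxcl12 (0.60). The proximal tubule and stromal marker sums given above were higher in the same libraries, and their part in these differences was not tested. Of the sheddases of Cxcl16 and Cx3cl1, Adam10 was lower (-0.37, edgeR adjusted p = 0.0393), with overlapping groups and with the call lost in 6 of 15 alternative fits (adjusted p up to 0.327), and Adam17 had a log2 fold change of -0.10 (edgeR adjusted p = 0.449).

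To compare the ligands with each other, CPM were divided by the length of the annotated exons (CPM per kb). In all 3 controls Cxcl2 ranked first, with a mean of 202 ± 21.9 CPM per kb (SD, n = 3), ahead of Cxcl16 at 168 ± 12.2. This order rests on the division by length. In CPM without it, Cxcl16 ranked first in all 6 libraries, with 44.2%, 42.5% and 39.0% of the ligands' CPM in the controls against 32.4%, 32.2% and 39.0% for Cxcl2, and Cxcl9 was above Cxcl2 in PTEC DN RAR replicates 2 and 3. In all 3 PTEC DN RAR libraries Cxcl16 ranked first, at 211 ± 27.7 CPM per kb, before Cxcl2 at 66.7 ± 16.4 and Cxcl9 at 45.4 ± 12.1. Cxcl10 had the next highest mean, 26.0 ± 11.4 CPM per kb, but was below Cxcl14 in PTEC DN RAR replicates 1 and 2. Within each PTEC DN RAR library, Cxcl2 (71.0, 48.6 and 80.5 CPM per kb) was above Cxcl9 (34.7, 43.0 and 58.6), and Cxcl9 was above Cxcl10 (18.8, 20.0 and 39.1). In the controls Cxcl10 followed at 44.3 ± 10.9 CPM per kb, and Cxcl9 (24.6 ± 3.67) and Cxcl1 (24.5 ± 3.19) were level. In the lower ranks, Cxcl14 was at 13.3 ± 2.30 CPM per kb in controls and 17.9 ± 5.75 in PTEC DN RAR, Cxcl1 fell to 8.81 ± 3.49, and Cx3cl1 went from 3.45 ± 0.912 to 7.94 ± 0.229. Cxcl3 went from 6.16 ± 1.43 to 1.26 ± 0.569 CPM per kb and Cxcl12 from 0.791 ± 0.132 to 2.30 ± 0.256, so that their order turned around, and Cxcl5 was the lowest in both groups. The exon lengths include retained-intron transcripts, which cover the entire gene body of Cxcl1 (1875 bases), Cxcl2 (2068 bases), Cxcl3 (3498 bases) and Cxcl10 (2252 bases), and so lower the per-kb level of such genes.

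As a share of the summed CPM per kb of the 10 ligands, the 4 Cxcr2 ligands took 45.3%, 45.2% and 52.9% in the controls and 21.0%, 14.3% and 24.0% in PTEC DN RAR. The membrane-bound pair, nearly all of it Cxcl16, took 37.7%, 35.6% and 32.3% in controls and 59.3%, 62.8% and 47.8% in PTEC DN RAR. Neither share overlapped between the genotypes. Within the Cxcr3 ligands, Cxcl9 went from 5.04% ± 0.61 to 11.7% ± 3.04 (SD, n = 3) and Cxcl10 from 9.06% ± 1.97 to 6.69% ± 2.85, and their summed share overlapped between the groups (14.1% ± 2.58 and 18.4% ± 5.80). The ratio of Cxcl1 to Cxcl2 differed between the genotypes by only 0.07 on the log2 scale (exact two-sided permutation p = 0.8). The level of this pair changed, but the difference in their proportion was not larger than the spread between libraries.

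**Figure D4:**
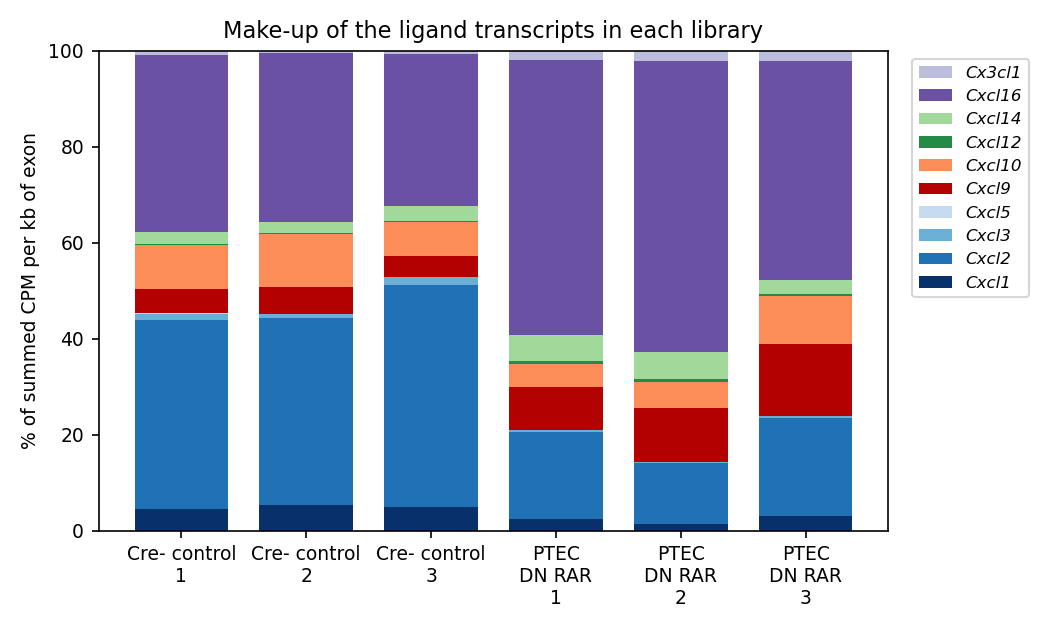
Share of each ligand in the summed CPM per kb of the 10 ligands (%), 1 bar per library, 3 Cre- control and 3 PTEC DN RAR. Cxcl2 (mid blue) takes 38.8% to 46.2% of the control bars and 12.8% to 20.5% of the PTEC DN RAR bars, and Cxcl16 (purple) 31.7% to 36.8% and 45.7% to 60.7%.

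Of the 9 receptors 7 were tested and 2, Cxcr2 and Cxcr4, were lower, beside 17.1% over all genes. Higher were 0 with edgeR, beside 23.6% over all genes. DESeq2 and limma-voom also gave 0, and 2, Cxcr3 and Ackr3, were higher at an unadjusted p under 0.05. The remaining CXC ligands and receptors were scarce. Cxcl13, which draws B cells, varied more between mice than between genotypes, at 3.23, 15.4 and 1.55 CPM in controls and 8.63, 9.73 and 0.318 CPM in PTEC DN RAR (log2 fold change -0.10, edgeR adjusted p = 0.943). Its receptor Cxcr5 was under 1 CPM (log2 fold change 0.22, edgeR adjusted p = 0.73), as was Cxcl17 (-0.48, edgeR adjusted p = 0.46). Cxcl15 had 0 reads in all 6 libraries. Ackr1, the atypical receptor of erythrocytes and venules, had 2, 0 and 1 reads in controls and 6, 1 and 4 in PTEC DN RAR.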

How the data were processed

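CD11B+ cells from 6 mice (3 Cre- control, 3 PTEC DN RAR) were profiled by polyA RNA sequencing. The authors deposited raw read counts per gene. The submitters' processing notes name STAR (2.5.0a), HTSeq (0.6.1), edgeR, limma and GRCm38; strandedness of counting was not given in the sources used here. Of 46612 gene lines, 9 were repeats with equal counts and were merged. Reads without a unique alignment (42.9% to 47.8% per library, as a share of all lines of the table) and other lines that name no gene were left out.

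Counts were analysed in R (4.3.3) with edgeR (4.0.16): filterByExpr, TMM scaling, glmQLFit and glmQLFTest, two-sided, with Benjamini-Hochberg adjustment over 15440 genes. CPM were computed by edgeR from the same scaling. Alternatives were DESeq2 (1.42.0), limma-voom (limma 3.58.1), median-of-ratios scaling, library size alone, scaling on 25 pan-leukocyte or 10 resident macrophage genes, no filter, at least 10 counts in every library, a replicate block and omission of each library, 15 in all. Ratios were compared by exact permutation (scipy 1.17.1). Exon lengths came from GENCODE M21 and promoters from RefSeq.

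The ligands, gene lists and markers were chosen with earlier results of these data known. All ligands, the other CXC ligands and the receptors were to be named, with up to 4 genes of largest change per direction from the remaining lists and a fixed set of regulators, of which 1 is not reported here. Replicate libraries differed by far more than sampling noise (chi-square per degree of freedom at least 27.1), so none was counted as a duplicate. Groups came from the genotype labels. The labels do not say that same-numbered mice share a litter or batch. The labels name separate mice by number only, so the p-values measure the spread between these samples.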

Additional observations from a re-analysis of the deposited data

How the results depend on the processing

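Cxcl1, Cxcl2, Cxcl3, Cxcl9, Cxcl12 and Cx3cl1 kept their direction and their call in all 15 alternatives. The 25 pan-leukocyte genes used for scaling summed to 16604 to 17396 CPM in controls and 13325 to 15691 CPM in PTEC DN RAR. Of these genes 8 were lower and 0 higher. Scaling on them moved the median over all genes (log2) from 0.04 to 0.24 and the split of calls from 2636 lower and 3640 higher to 728 lower and 4846 higher. With it, the ligands had 5 higher, the receptors 1 lower and 3 higher, the NF-kB genes 6 lower and 2 higher, and the interferon genes 3 lower, while Cxcl14 (0.60) and Cxcl16 (0.53) passed the threshold and Cxcl13 (0.0517), Irf1 (0.019) and Adam17 (0.10) changed sign. With resident macrophage scaling, 11 NF-kB genes were lower. No NF-kB gene (0) was higher with that scaling, with DESeq2, with median-of-ratios scaling or with no filter. With no filter 5 ligands were lower, Cxcl5 and Cxcl10 (-0.79) being added, and limma-voom also took Cxcl10 past the threshold (-0.82). Cxcl16 passed with DESeq2 (0.29), with library size alone (0.33) and with at least 10 counts in every library (0.36). The cause of these changes was not tested.

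Leaving out 1 library at a time gave 3 to 5 ligands lower and 3 to 5 higher (5 and 5 without PTEC DN RAR replicate 3). Those lower include Cxcl5 in 4 of the 6 fits, where it passed the filter through the controls, in which it is higher. Without Cxcl5, 3 to 4 were lower. The same omissions gave 1 to 2 receptors lower, 11 to 14 NF-kB genes lower and 0 to 1 higher, and 6 to 21 interferon genes lower. The log2 fold change ranged from -1.23 to -0.58 for Cxcl10, 0.27 to 0.63 for Cxcl14, 0.23 to 0.39 for Cxcl16, -0.62 to 1.32 for Cxcl13, -0.16 to 0.50 for Cxcr5, -1.09 to -0.19 for Cxcr1, -0.79 to -0.10 for Irf7 and -0.83 to -0.20 for Cxcl17, and the log2 ratio of Cxcl1 to Cxcl2 differed by -0.0408 to 0.21. The share of Cxcl12, as a mean over all 6 libraries of both genotypes, was 0.378% of the ligands' CPM per kb and 1.14% of their CPM without division by length.

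Same-numbered libraries did not deviate together throughout (correlations of -0.01, 0.21 and 0.03), so the replicate numbers were not treated as pairs. With a replicate block, 2606 genes were lower and 3612 higher, 3 ligands were lower and 4 higher, with Cxcl16 (0.32) added, 10 interferon genes were lower and 1 receptor, Ackr3, was higher.

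Precision rests on 3 mice per genotype, so an exact test of a single ratio cannot reach 0.05. Cxcl5, Ifng, Cxcr6 and Ackr1 rest on a few reads per library and did not pass the filter on low counts over all 6 libraries.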
